A study of Mus musculus with 6 samples.

Results

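In the LSK fraction of bone marrow (BM), which is lineage−Sca-1+c-Kit+ and holds haematopoietic stem cells (HSCs) with early progenitors, transcription factor genes that mark and maintain HSCs were measured on arrays labelled control and *Atg5f/f;Vav*. The 9 genes were *Mecom*, *Hlf*, *Meis1*, *Prdm16*, *Gata2*, *Runx1*, *Erg*, *Fli1* and *Etv6*, among 19305 protein-coding genes matched on the array, and every probe listed under one of these symbols was used, which gave 18 of 56605 probes. *Mecom* and *Hlf* were 3.36-fold and 3.14-fold lower on the *Atg5f/f;Vav* arrays, and *Prdm16*, *Meis1* and *Erg* were also lower. *Gata2*, *Runx1*, *Fli1* and *Etv6* did not pass the test, with log2 differences of 0.26, −0.23, −0.38 and −0.33.

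HSC identity rests on transcription factors that bind together at shared regulatory elements, keep self-renewal genes active and hold back differentiation. *Mecom*, *Hlf*, *Prdm16* and *Meis1* are expressed most strongly at the top of the haematopoietic hierarchy and fall as cells commit. *Gata2*, *Runx1*, *Erg* and *Fli1* form a group of co-binding factors, the heptad, with *Tal1*, *Lyl1* and *Lmo2*, and remain expressed further into the progenitor stages.

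RNA from LSK cells of 3 control and 3 *Atg5f/f;Vav* samples was hybridised to 1-colour arrays with 60-base probes, 1 array per sample. All mice had the C57BL/6 background and were aged P6–8. The controls (*Atg5w/w;VaviCre+*) had wild-type *Atg5* and carried the Cre transgene as well, so both groups shared Cre, whose Vav promoter is active in haematopoietic cells, and the second group (Atg5f/f;VaviCre+) had loxP-flanked *Atg5* alleles. The sources used here do not state whether samples were single mice or pools, so SD and n refer to arrays and the spread may be technical. Values are log2 signal relative to the 75th percentile of the same array, which was an intensity of 620.3 to 881.4. Differences were taken between arrays for the same probe. Signals of different probes were set side by side only to choose the brightest probe of a gene, in ratios of gene pairs and in sums over marker lists.

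Several facts of the whole series bear on each result. Probes well above background made up 57.6% to 58.2% on control arrays and 51.6% to 54.8% on *Atg5f/f;Vav* arrays. All 6 arrays lay on 1 slide and were scanned in 1 run, with each group in a slide row of its own, so the row on the slide and the genotype cannot be told apart. The 1 probe of *Atg5* had a log2 signal of 0.93 to 1.10 on control and 1.46 to 1.74 on *Atg5f/f;Vav* arrays, higher by 0.54 (standard error [SE] 0.12, limma adjusted p = 0.0209). Where that probe lies relative to the floxed exon was not determined, and every direction given rests on the labels of the arrays. *Kit* and *Ly6a*, the genes of the sorted surface proteins c-Kit and Sca-1, separated the groups in opposite directions. *Kit* had a log2 signal of 3.93 to 4.12 on control and 3.50 to 3.82 on *Atg5f/f;Vav* arrays (difference −0.38, limma adjusted p = 0.0563, not past the threshold), and *Ly6a* had 1.31 to 1.56 and 2.89 to 3.30 (difference 1.57, limma adjusted p = 0.00623). *Atg5f/f;Vav* replicate 3 stood apart among the 9 genes. It gave the lowest signal of the 6 arrays for 8 of them. Control replicates 2 and 3 carried stromal signal, described with the marker lists. In total RNA of sorted cells, fewer cells of a type and less RNA per cell cannot be told apart.

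The probes shown here belong to genes that were lower, and each has 1 reading frame without a stop codon over its 60 bases. Coordinates are those of the array annotation on mm9, on the minus strand, and the exon in which each probe lies was not determined. The *Mecom* probes lay at chr3:29876185-29876244 and chr3:29878979-29879038, and the *Meis1* probe lay at chr11:18911247-18911306. The letters are the sense strand, 5′ to 3′.
*Mecom*, first probe: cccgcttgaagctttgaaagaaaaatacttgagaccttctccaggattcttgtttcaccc
*Mecom*, second probe: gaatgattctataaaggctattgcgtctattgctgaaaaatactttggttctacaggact
*Meis1*: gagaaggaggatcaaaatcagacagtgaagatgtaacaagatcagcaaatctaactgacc

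Promoters of the 5 genes that were lower are shown because these genes moved in the same direction. For 8 of the 9 genes RefSeq promoter sequence was at hand (GRCm38.p6, 13 promoters, each with 250 bases before and 50 bases after an annotated start), and the 250 bases before the start are printed. *Fli1* was not matched. The windows were chr3:30013205-30013454 for *Mecom*, chr11:90390918-90391167 for *Hlf*, chr11:19018970-19019219 for *Meis1*, chr4:154636874-154637123 for *Prdm16* and chr16:95459349-95459598 for *Erg*, each on the minus strand. *Mecom* has a further promoter, at chr3:30509760-30510009, and *Erg* has 2 further promoters that are not printed. Which promoter gives the transcripts that a probe reads was not determined, so a printed promoter need not belong to them. Capitals mark matches to the letters searched. These windows and the probes above are on different builds.
*Mecom*: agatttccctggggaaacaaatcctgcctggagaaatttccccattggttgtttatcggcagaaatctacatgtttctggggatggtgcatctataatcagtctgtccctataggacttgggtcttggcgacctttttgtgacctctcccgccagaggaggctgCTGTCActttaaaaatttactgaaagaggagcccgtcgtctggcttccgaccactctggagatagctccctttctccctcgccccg
*Hlf*: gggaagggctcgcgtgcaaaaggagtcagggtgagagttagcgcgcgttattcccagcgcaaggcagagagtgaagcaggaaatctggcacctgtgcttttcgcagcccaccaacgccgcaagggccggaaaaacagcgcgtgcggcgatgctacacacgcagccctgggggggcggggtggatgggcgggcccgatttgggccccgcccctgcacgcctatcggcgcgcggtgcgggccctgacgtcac
*Meis1*: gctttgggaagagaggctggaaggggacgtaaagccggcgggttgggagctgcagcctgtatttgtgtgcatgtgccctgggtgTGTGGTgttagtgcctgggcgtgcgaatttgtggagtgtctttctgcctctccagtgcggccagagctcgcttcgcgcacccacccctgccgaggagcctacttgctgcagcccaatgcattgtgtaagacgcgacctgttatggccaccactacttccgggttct
*Prdm16*: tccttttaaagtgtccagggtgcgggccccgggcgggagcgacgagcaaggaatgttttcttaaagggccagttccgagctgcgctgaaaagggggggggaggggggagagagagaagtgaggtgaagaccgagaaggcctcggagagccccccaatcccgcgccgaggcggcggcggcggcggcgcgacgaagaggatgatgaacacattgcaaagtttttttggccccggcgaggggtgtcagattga
*Erg*: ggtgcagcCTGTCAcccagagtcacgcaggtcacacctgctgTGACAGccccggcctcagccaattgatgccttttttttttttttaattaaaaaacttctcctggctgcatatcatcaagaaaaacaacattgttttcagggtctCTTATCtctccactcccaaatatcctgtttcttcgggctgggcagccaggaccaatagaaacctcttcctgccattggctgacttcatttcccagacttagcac

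Letters recognised by the factors themselves were searched on both strands of the 300-base windows. GATAAG, read by GATA factors, occurred in 1 of the 13 promoters, that of *Erg* (from 104 bases before the start, as its reverse complement), and in 7.44% of all 32851 promoters. TGTGGT, read by RUNX factors, occurred in 1 promoter each of *Meis1* (from 166 bases before the start) and *Runx1* and in 16.8% of all. TGACAG, read by MEIS factors, occurred in 1 promoter each of *Mecom* and *Erg*, in the printed window as its reverse complement 86 bases before the start of *Mecom*, and in 19.2% of all. CAGGAAGT, read by ETS factors, and TTACGTAA, read by PAR-type leucine zipper factors, occurred in none of the 13, and in 3.33% and 0.119% of all. A match describes the letters only.

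*Mecom* encodes a zinc finger factor required for long-term self-renewal. Its representing probe, the one with the highest mean signal, lay at chr3:30135491-30135550 on mm9. It had a log2 signal of −0.63, −0.86 and −1.14 on control arrays and −2.29, −2.15 and −3.43 on *Atg5f/f;Vav* arrays. All 3 *Atg5f/f;Vav* arrays were below all controls, and replicate 3 was lowest by more than 1 log2 unit. *Atg5f/f;Vav* minus control, the difference came to −1.75 (SE 0.34, limma adjusted p = 0.0168, by Benjamini-Hochberg over all probes tested). The printed *Mecom* probes fell by 1.86 (first; limma adjusted p = 0.0201) and by 1.65 (second; adjusted p = 0.0178), again without overlap. The first of them was well above background on 3 control arrays and 2 *Atg5f/f;Vav* arrays. Between these probes and the representing probe the log2 difference itself differed by −0.12 and 0.10, with overlap between groups (exact permutation p = 0.7 and 0.2, 2-sided). A further pair of *Mecom* probes, at chr3:30445665-30445724 and chr3:30445664-30445723, was well above background on no array and was not tested. They overlap in all but 1 base and so are not separate measurements.

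*Hlf* encodes a PAR-type leucine zipper factor that is switched off early as HSCs differentiate. Its 1 probe (chr11:90201236-90201295) had a log2 signal of 3.74, 3.71 and 3.46 on control arrays and 2.36, 2.42 and 1.17 on *Atg5f/f;Vav* arrays. The groups did not overlap, and replicate 3 was again lowest. The difference came to −1.65 (SE 0.33, limma adjusted p = 0.0172).

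*Prdm16*, the closest relative of *Mecom*, encodes a PR-domain zinc finger factor needed for HSC maintenance. Its 1 probe is listed on chromosome 4 of mm9 with a span of only 153690234 to 153690238, which is shorter than the 60-base probe. The log2 signal was 0.93, 0.82 and 0.77 on control arrays and 0.10, 0.22 and −0.54 on *Atg5f/f;Vav* arrays. Every *Atg5f/f;Vav* array was below every control. The difference came to −0.91 (SE 0.21, limma adjusted p = 0.0210).

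*Meis1* encodes a TALE homeodomain protein that binds DNA together with Hox and Pbx proteins. Its representing probe (chr11:18780695-18780754) had a log2 signal of 4.38, 4.44 and 4.48 on control arrays and 4.04, 3.86 and 3.07 on *Atg5f/f;Vav* arrays. The control arrays lay within 0.10 of each other and above all *Atg5f/f;Vav* arrays. The difference came to −0.78 (SE 0.25, limma adjusted p = 0.0484), close to the threshold of 0.05. The printed *Meis1* probe fell by 1.15 (limma adjusted p = 0.0208), from 0.99 to 1.49 on control arrays to −0.38 to 0.47. A probe at chr11:18785035-18785094 fell by 1.04 (limma adjusted p = 0.0246). The fourth probe, at chr11:18909900-18909959, differed by −0.92 (limma adjusted p = 0.0709) and did not pass. All 4 *Meis1* probes separated the groups without overlap. The fall at chr11:18785035-18785094 differed from that of the representing probe by −0.27 on the log2 scale (a larger fall) without overlap (exact permutation p = 0.1, 2-sided, the smallest that 3 arrays against 3 allow).

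**Figure D1:**
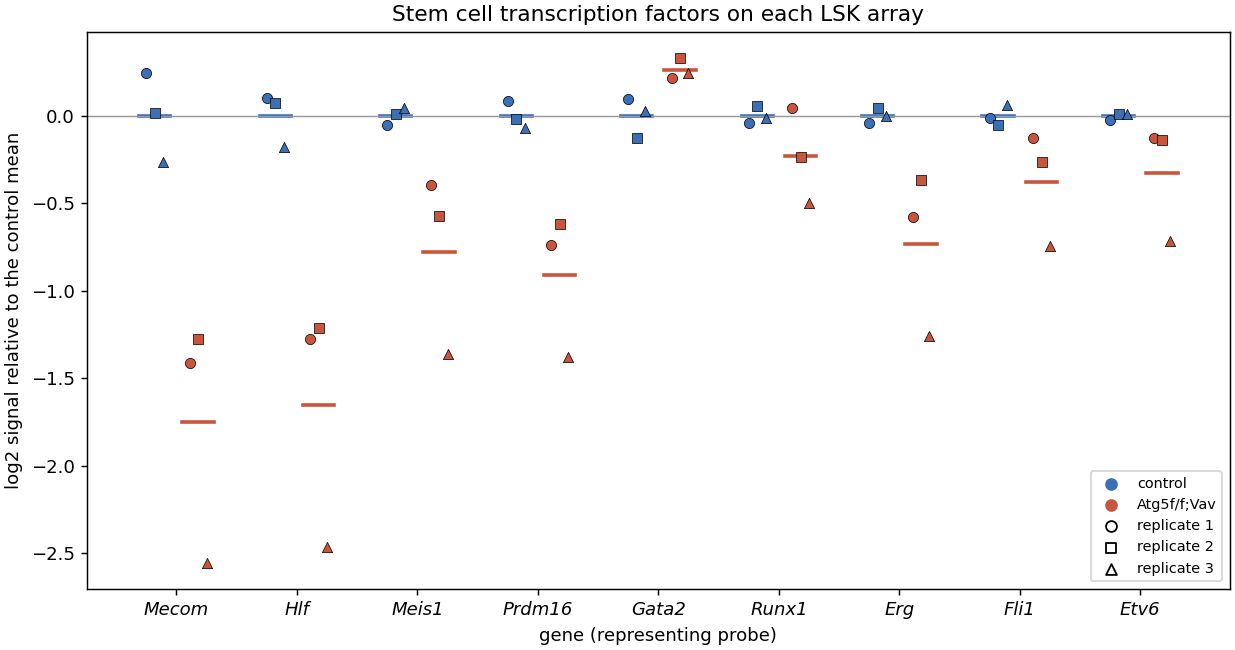
Log2 signal of the representing probe of each transcription factor gene, relative to the mean of the control arrays (vertical axis), by gene (horizontal axis). Points are single arrays, with colour for group and shape for replicate, and bars are group means. *Mecom* and *Hlf* lie lowest, *Gata2* is the gene whose *Atg5f/f;Vav* arrays lie above the controls, and *Atg5f/f;Vav* replicate 3 is lowest for 8 of 9 genes.

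Of the heptad genes, *Erg* passed the test and *Gata2*, *Runx1* and *Fli1* did not. *Gata2*, a zinc finger factor needed for HSC survival, had a log2 signal of 2.61, 2.39 and 2.54 on control arrays and 2.73, 2.85 and 2.75 on *Atg5f/f;Vav* arrays (chr6:88156835-88156894). All *Atg5f/f;Vav* arrays were above all controls, and replicate 3 was not apart from the other two. The difference came to 0.26 (SE 0.11, limma adjusted p = 0.103) and did not pass. With quantile normalisation it was 0.02.

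*Runx1* is the DNA-binding subunit of core binding factor, which starts definitive haematopoiesis. Its representing probe (chr16:92602576-92602635) had a log2 signal of 2.59, 2.69 and 2.62 on control arrays and 2.68, 2.40 and 2.14 on *Atg5f/f;Vav* arrays, which overlapped. The difference was −0.23 (limma adjusted p = 0.272). The other *Runx1* probes differed by 0.20 (chr16:92605785-92605844, adjusted p = 0.267) and 0.49 (chr16:92697238-92697297, adjusted p = 0.188), also with overlap and not past the limma threshold. The last of them is listed at base 277 of 1 annotated transcript. The representing probe is listed at base 6196 of a different transcript, and the probe at chr16:92605785-92605844 at base 2987 of that same transcript. The difference between probes was 0.43 and 0.72, with overlap (exact permutation p = 0.2 each). The sign for *Runx1* therefore depends on the probe, and with the mean of its detected probes the difference was 0.15.

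*Erg* encodes an ETS factor required for HSC self-renewal. Its 1 probe (chr16:95582331-95582390) had a log2 signal of 2.63, 2.71 and 2.67 on control arrays and 2.09, 2.30 and 1.41 on *Atg5f/f;Vav* arrays, without overlap. The controls lay within 0.08 of each other, whereas the *Atg5f/f;Vav* arrays spread over 0.89. The difference came to −0.73 (SE 0.23, limma adjusted p = 0.0453).

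*Fli1* is the ETS relative of *Erg* and acts in HSCs and megakaryocytes. Its 1 probe (chr9:32229857-32229916) had a log2 signal of 1.91, 1.87 and 1.99 on control arrays and 1.80, 1.66 and 1.18 on *Atg5f/f;Vav* arrays, without overlap. The difference was −0.38 (limma adjusted p = 0.128). *Etv6*, an ETS-family repressor needed by adult BM HSCs, had a log2 signal of 5.12, 5.16 and 5.16 on control arrays and 5.02, 5.01 and 4.44 on *Atg5f/f;Vav* arrays (chr6:134219997-134220055). Those groups did not overlap either, and the difference was −0.33 (limma adjusted p = 0.178). Without *Atg5f/f;Vav* replicate 3 the differences were −0.19 for *Fli1* and −0.13 for *Etv6*.

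**Figure D2:**
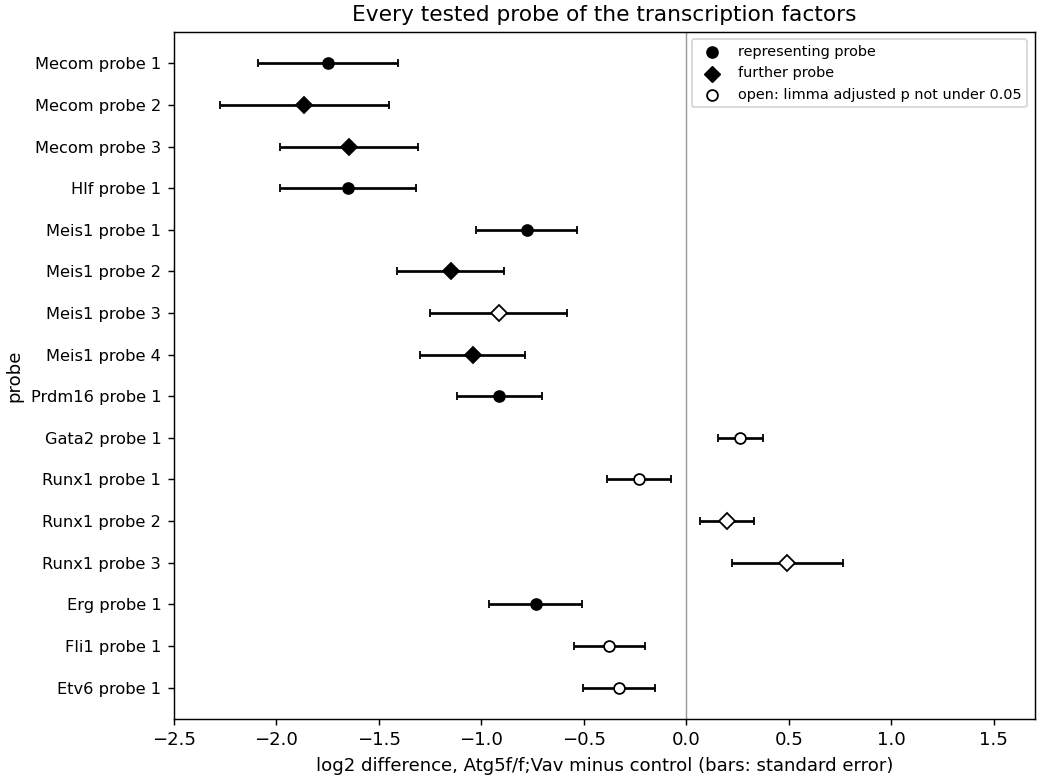
Log2 difference, *Atg5f/f;Vav* minus control (horizontal axis), with standard error bars, for the 16 tested probes (vertical axis), grouped by gene. Filled symbols passed an adjusted p of 0.05 in limma, circles are representing probes and diamonds further probes. The 3 *Mecom* probes and *Hlf* lie between −1.86 and −1.65, the 4 *Meis1* probes between −1.15 and −0.78, and the *Runx1* probes fall on both sides of 0.

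Counted over probes, 9 of the 16 tested were called lower and 0 were called higher (adjusted p under 0.05 in limma). Among all 32074 probes tested, 34.4% were called, 17.3% higher and 17.1% lower. Signals of the groups were apart for 13 of the 16 probes, beside 55.4% of all probes. Counted over genes by the representing probe, 5 of 9 were called lower and 0 higher, where 12.5% of 13034 genes were called lower and 22.6% higher. The 9 genes had a median log2 difference of −0.73, and all genes tested had a median of 0.05 (interquartile range −0.31 to 0.39). Of all genes tested, 1.14% had a lower difference than *Mecom*, 1.40% than *Hlf*, 6.46% than *Prdm16*, 8.73% than *Meis1* and 9.48% than *Erg*. For *Fli1*, *Etv6* and *Runx1* the share was 21.4%, 23.7% and 29.7%, and for *Gata2* it was 66.7%. Probes of 1 gene read RNA of the same gene, so the counts over probes are not counts of independent measurements. The probes of *Mecom*, *Meis1* and *Runx1* are each listed under more than 1 transcript of the gene, and which transcripts they share was not determined.

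The 36 pairs of these genes were compared by their log2 ratio on each array. The ratio changed without overlap between groups in 30 pairs, and in 58.1% of the pairs of all genes tested, and the 36 pairs share 9 probes. An exact permutation test over 3 arrays against 3 cannot go below p = 0.1, so no pair could pass. The difference for *Mecom* was lower than that for each other gene, without overlap for all but *Hlf*, and the ratio changed by −0.84 against *Prdm16* and by −2.01 against *Gata2*. For *Mecom* and *Hlf* the ratio changed by −0.10 with overlap, from −4.51 ± 0.13 (SD, n = 3) on control to −4.61 ± 0.04 (SD, n = 3) on *Atg5f/f;Vav* arrays. The ratios of *Meis1* to *Erg* (−0.04), *Meis1* to *Prdm16* (0.13) and *Fli1* to *Etv6* (−0.05) also overlapped. The ratio of *Prdm16* to *Erg* changed by −0.18 without overlap. *Gata2* moved away from each of the other genes without overlap, for example by 0.64 from *Fli1* and by 0.59 from *Etv6*.

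The spread was larger on *Atg5f/f;Vav* than on control arrays for every gene but *Gata2*, whether or not the gene was called. On control arrays the SD of the log2 signal was 0.02 to 0.15 for 8 genes and 0.25 for *Mecom*. On *Atg5f/f;Vav* arrays it was 0.70 for *Mecom* and *Hlf*, 0.51 for *Meis1*, 0.47 for *Erg* and 0.41 for *Prdm16*. For *Etv6*, *Fli1* and *Runx1* it was 0.33, 0.32 and 0.27, and for *Gata2* it was 0.06. With *Atg5f/f;Vav* replicate 3 left out, *Mecom* still differed by −1.34, *Hlf* by −1.24, *Prdm16* by −0.68, *Meis1* by −0.48 and *Erg* by −0.47, and all 5 genes passed the threshold in limma. Without control replicate 1, and without control replicate 2, 0 of the 9 genes passed, while the number of probes called among all probes fell to 330 and 251. The adjusted p from limma was then 0.0688 to 0.0729 for *Mecom* and *Hlf*. Without control replicate 3 *Meis1* and *Erg* did not pass and 3 genes did. *Meis1*, *Prdm16* and *Erg* also lost the call with no filter on dim probes, and all 5 genes lost it in the methods' t-test. Across the 6 arrays left out in turn, *Mecom* ranged from −1.98 to −1.34 and *Hlf* from −1.87 to −1.24.

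**Figure D3:**
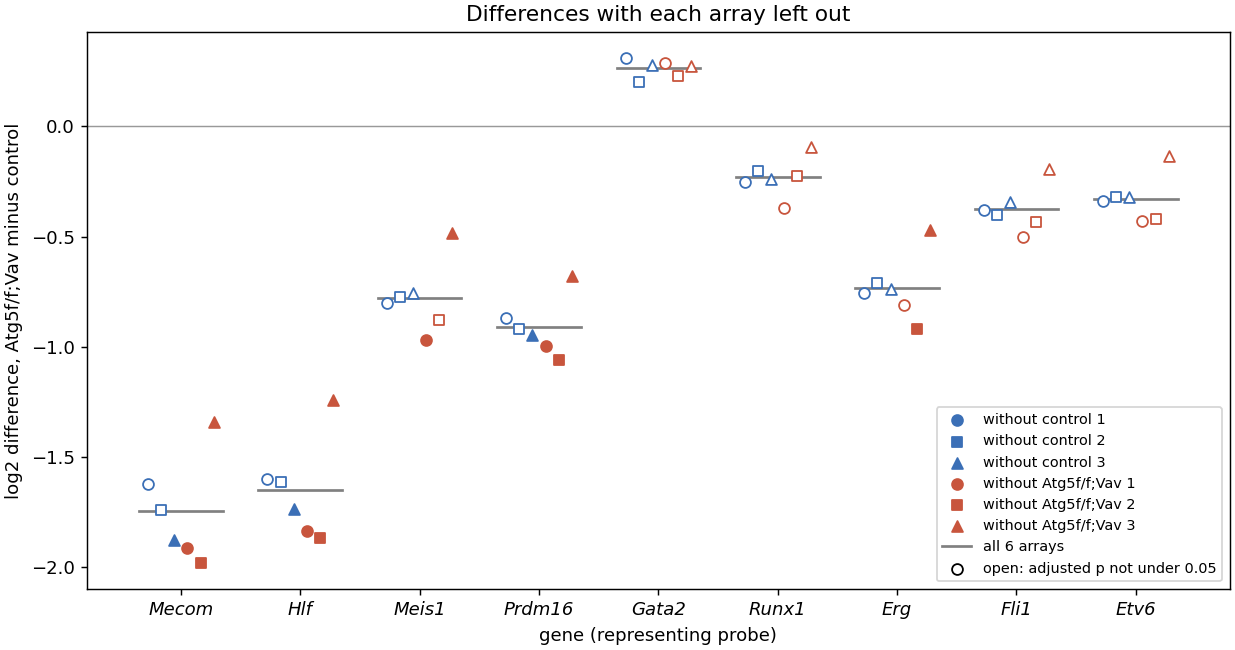
Log2 difference, *Atg5f/f;Vav* minus control (vertical axis), of each gene's representing probe (horizontal axis) with each of the 6 arrays left out in turn. Grey lines are the values from all 6 arrays, and open symbols did not pass an adjusted p of 0.05 in limma. The sign is the same for every gene with any array left out, and the values without *Atg5f/f;Vav* replicate 3 lie nearest to 0 for all genes but *Gata2*.

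Regulators related to these factors were read from 6 lists with 72 genes, of which 71 were tested. In limma 12 were called higher and 12 lower, a share in either direction close to the 35.1% of all genes tested (22.6% higher and 12.5% lower), and the counts for each list and for the cell type markers stand beside these shares. The calls over the 6 lists were 7 and 15 with quantile normalisation and 8 and 20 with the 75th percentile taken over the probes that all arrays detected. Of 7 heptad partners, 1 was called higher and 0 lower. The log2 differences of the heptad members *Tal1*, *Lyl1* and *Lmo2* were 0.03, 0.01 and −0.11. The list's median of 0.03 was −0.25 with quantile normalisation and −0.13 with that percentile. *Ldb1*, a partner of *Lmo2*, rose by 0.37 (limma adjusted p = 0.0421). *Cbfb*, the partner subunit of *Runx1*, differed by 0.07, and the E proteins *Tcf3* and *Tcf12* by 0.46 and −0.20, none past the threshold.

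In the list of Hox genes, Pbx genes and relatives of *Meis1*, 4 of 12 tested were lower and 0 higher, with a median of −0.33. The 4 were *Hoxa10* (−1.31), *Hoxa5* (−1.19), *Hoxa9* (−1.17) and *Hoxb3* (−0.37). *Hoxa10*, a homeobox factor of stem and myeloid progenitor cells, had a log2 signal of 1.55, 1.39 and 1.27 on control arrays and 0.51, 0.45 and −0.66 on *Atg5f/f;Vav* arrays, without overlap (limma adjusted p = 0.0232). *Hoxa9* encodes the classical partner of *Meis1* (limma adjusted p = 0.0206). The Pbx genes, whose proteins complete the complex, differed by −0.13 to 0.20 and none passed. *Meis2* was well above background on 1 array and was not tested.

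Of 12 paralogues of the 9 genes, 2 were higher and 2 lower, again close to the share of all genes. *Gata1*, the GATA factor of erythroid and megakaryocytic differentiation, rose by 3.001 (limma adjusted p = 0.0121), from 0.87, 0.38 and 0.95 on control arrays to 2.90, 3.73 and 4.56. *Runx3* rose by 0.36 and *Runx2* fell by 0.71. *Ets1* fell by 0.97. The *Hlf* relatives *Dbp*, *Tef* and *Nfil3* did not pass (−0.62, −0.27 and 0.36).

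Corepressors and cofactors had a median of 0.24, and 4 of 14 were higher. *Zfpm1*, the cofactor FOG-1 of GATA proteins, rose by 0.93, the histone methyltransferase gene *Suv39h1* by 0.75 and the deacetylase gene *Hdac3* by 0.35. With quantile normalisation the list's median was −0.10, with 1 higher and 2 lower. Among 16 other regulators of HSCs 5 were lower and 2 higher, with a median of −0.59. Among those called, *Nkx2-3* (−1.31), *Mllt3*, which supports HSC self-renewal in culture (−0.92), and *Ikzf2* (−0.81) fell most, while *Hoxb5* (−1.76) and *Mycn* (−1.01) did not pass. *Gfi1b*, a transcriptional repressor that acts in the erythroid and megakaryocytic lineages, rose by 2.23 and *Zbtb16* by 1.05. Of 10 lineage factors 3 were higher and 1 lower. *Klf1*, the erythroid activator, rose by 2.95, *Irf8*, a factor of monocyte and dendritic cell lineages, by 1.49 and *Cebpa*, the myeloid factor, by 0.91, whereas *Ikzf1* fell by 0.34. *Spi1* differed by −0.05. Over 5 settings (the reported analysis, quantile normalisation, the percentile over commonly detected probes, the deposited normalised signal and normexp background correction), *Ldb1*, *Runx3*, *Hdac3* and *Ctbp1* passed the limma threshold in 3 and *Hoxb3* in 2, and *Ctbp1* ranged from −0.08 to 0.32.

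**Figure D4:**
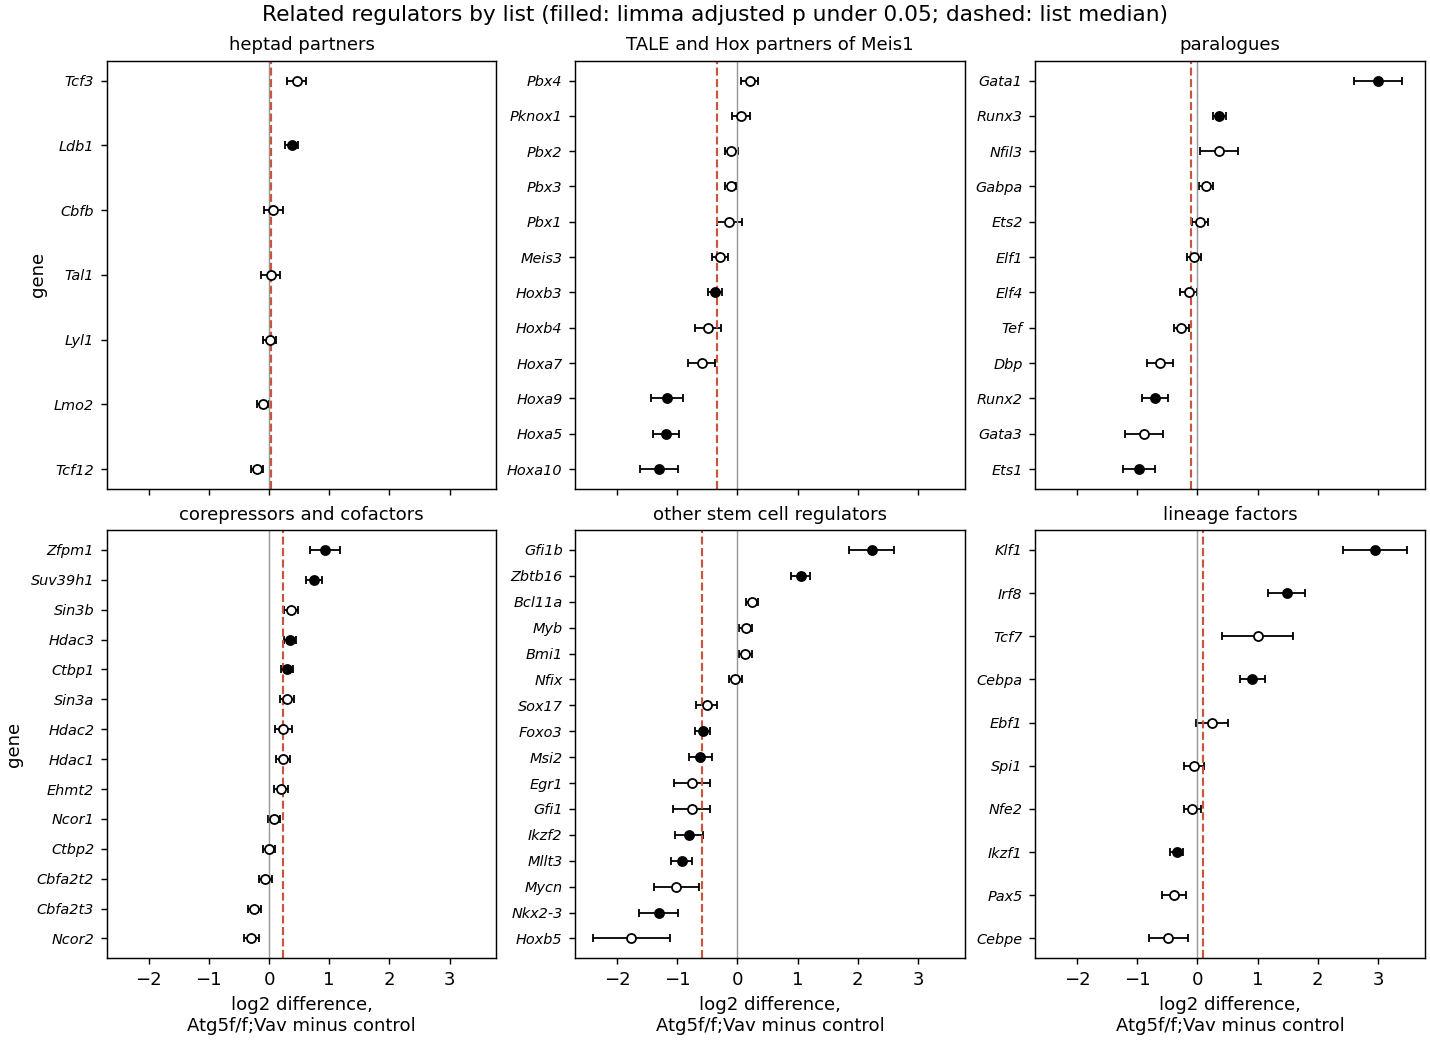
Log2 difference, *Atg5f/f;Vav* minus control (horizontal axis), with standard error bars, of every tested gene (vertical axis) in the 6 lists of related regulators. Filled points passed an adjusted p of 0.05 in limma and dashed lines are list medians. Hoxa genes lie lowest in the list of Hox genes, Pbx genes and *Meis1* relatives, heptad partners lie near 0, and *Gata1*, *Klf1* and *Gfi1b* lie highest.

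For each of the 9 genes, the 3 genes with the most similar profile over the 6 arrays were found among 11962 genes detected on all of them, by the root mean square distance of log2 profiles centred on their own mean. *Hlf* was the nearest gene to *Mecom*, at a distance of 0.09, followed by *Slc16a9* and *Pabpc4l*. The nearest to *Hlf* were *Slc16a9*, at 0.07, then *Mecom* and *Cd200r1*. No other member was among the nearest of another. The nearest were *Capn2*, *Pcbd1* and *Ankrd13d* for *Meis1*, *Slc22a18*, *Tnfsfm13* and *Zfp354c* for *Prdm16*, and *Trim46*, *Snx33* and *Echdc3* for *Erg*. For *Gata2* they were *Chmp2a*, *Tmem9* and *2210016L21Rik*, for *Runx1* *Usp28*, *Rnf169* and *Cnnm4*, for *Fli1* *Ppp1r13b*, *Dhrs7* and *Cyld*, and for *Etv6* *Arhgef40*, *Raph1* and *Ctdspl*.

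Markers of the cell types that an LSK gate can hold, or that can enter a sort, were read from 12 lists. Summed signals weigh bright probes most, and the 2 brightest genes of a list made up 39.7% to 99.1% of its sum over lists and arrays. The stem cell surface and SLAM list held 12 genes, among them *Cd48* and *Flt3*, which the multipotent and lymphoid progenitor list also holds. Of these 12, 2 were lower and 1 higher. *Procr*, which encodes the HSC marker EPCR, differed by −1.56 and *Ly6a* by 1.57. With quantile normalisation 4 of the 12 were lower. With the percentile over commonly detected probes, and with normexp background correction, 6 were lower, and 1 was higher in each of these settings. Among all probes 3705, 8753 and 5449 were then lower, against 5484 in the reported analysis. The summed signal of that list was 143.3 to 154.2 times the 75th percentile on control arrays and 94.7 to 156.8 on *Atg5f/f;Vav* arrays, with replicate 3 lowest. *Cd34*, which was not called (−0.27, limma adjusted p = 0.36), made up 54.3% to 60.6% of that sum. Without *Cd34* and *Flt3* it was 41.0 to 41.1 and 36.1 to 43.8, with overlap. Of 9 endothelial markers tested 5 were lower and 1 higher, from −2.65 (*Cldn5*) to 0.58 (*Plvap*). Their summed signal was 102.1 to 121.0 and 57.5 to 107.8, again lowest on replicate 3. *Egfl7*, which was not called (−0.39, limma adjusted p = 0.206), made up 84.3% to 93.6% of that sum, and without it the sum was 15.3 to 17.2 and 3.66 to 9.76. The defining marker *Cdh5* was well above background on 0 control and 0 *Atg5f/f;Vav* arrays and was not tested. *Erg* and *Fli1* are expressed in endothelial cells as well. The part of endothelial cells in the results was not tested, and neither was whether the listed markers tell them from HSCs.

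Stromal transcripts set control arrays apart from each other. The summed signal of the stromal list was 3.63 on control replicate 1, 32.5 and 25.6 on control replicates 2 and 3, and 2.33 to 3.05 on *Atg5f/f;Vav* arrays. *Col1a1*, which encodes a collagen chain, had the lowest difference (−5.98) and *Pdgfrb* the highest (0.52), 4 of 7 tested were lower, and *Col3a1*, *Lum* and *Pdgfra* were not tested. Against control replicate 1 alone, which had little of this signal, *Mecom* differed by −1.99, *Hlf* by −1.75, *Prdm16* by −0.998, *Meis1* by −0.72 and *Erg* by −0.69. With 1 control array none of them passed in limma.

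Blood lineage markers moved in both directions. Of 10 erythroid markers 4 were higher and 3 lower, from −2.29 (*Slc4a1*) to 3.80 (*Car1*), with a summed signal of 364.7 to 732.9 on control and 165.4 to 217.8 on *Atg5f/f;Vav* arrays. The globin genes *Hba-a1* (−2.26) and *Hbb-bt* (−1.22) made up 68.4% to 95.9% of that sum, and without them it was 22.0 to 33.7 and 29.6 to 68.9, with overlap. All 7 neutrophil markers were lower, from −1.61 (*Mmp8*) to −1.21 (*Ngp*), with sums of 79.3 to 165.1 and 37.9 to 67.8. Of 6 myeloid progenitor markers 4 were higher, from −0.21 (*Elane*) to 1.91 (*Ctsg*), with sums of 76.6 to 180.1 and 211.3 to 265.5. Of 7 megakaryocyte markers 3 were lower and 1 higher, from −2.28 (*Ppbp*) to 1.17 (*Itga2b*), with sums of 7.92 to 9.34 and 6.68 to 7.15. The sums of these 4 lists over all their tested genes did not overlap between groups. *Gp9* made up 40.3% to 64.2% of the megakaryocyte sum, and without it the sum was 3.17 to 3.34 and 3.11 to 3.99, with overlap. Without *Gp9* and *Pf4* it was 2.16 to 2.22 and 1.43 to 2.04, without overlap.

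The sums of the remaining lists over all their tested genes overlapped. Of 6 multipotent and lymphoid progenitor markers tested 1 was lower, from −2.23 (*Notch1*) to 0.31 (*Cd48*), with sums of 46.7 to 53.3 on control and 27.9 to 56.3 on *Atg5f/f;Vav* arrays. Of 8 markers of mast cells, basophils and eosinophils 2 were lower and 1 higher, from −2.01 (*Cma1*) to 2.96 (*Ms4a2*), with sums of 8.68 to 22.0 and 8.61 to 12.9. *Cd74* was the 1 of 5 macrophage and dendritic markers called, higher by 1.69, the lowest being *Adgre1* at −0.31, with sums of 140.4 to 171.0 and 130.5 to 157.4. *Siglech*, which was not called, made up 96.1% to 98.6% of that sum, and without it the sum was 2.24 to 3.4 and 5.09 to 5.82, without overlap. Without *Siglech* and *Cd74* it was 1.47 to 1.7 and 1.45 to 1.68, with overlap. Of 6 B cell markers 1 was higher, from −0.66 (*Ms4a1*) to 1.56 (*Igll1*), with sums of 8.77 to 11.7 and 10.3 to 17.0. None of 4 T and NK cell markers was called, from −0.88 (*Klrb1c*) to −0.05 (*Cd3e*), with sums of 5.66 to 5.95 and 3.95 to 6.30. *Cd3g*, *Ncr1*, *Rag1* and *C1qa*, defining markers of these types, were well above background on fewer than 3 arrays. The part of other cell types in the values of the 9 genes was not tested.

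**Figure D5:**
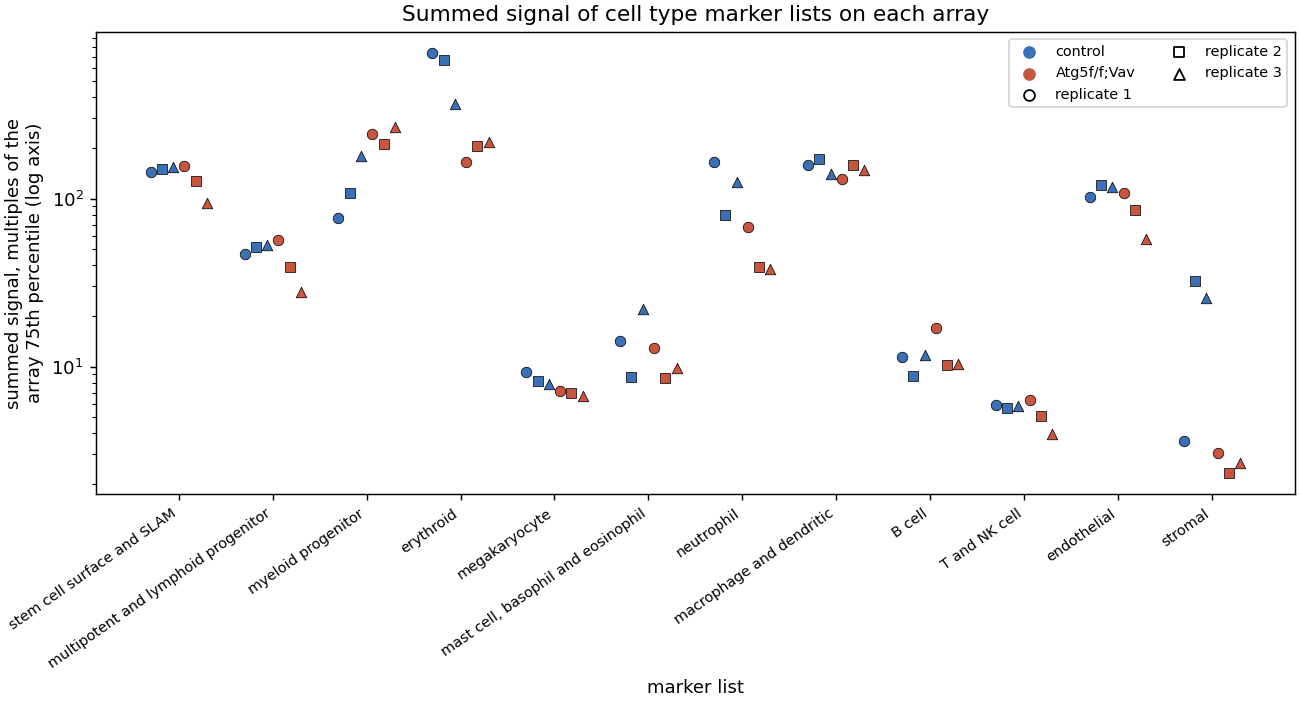
Summed signal, in multiples of the array's 75th percentile (vertical log axis), of the tested genes of each cell type marker list (horizontal axis). Points are single arrays, with colour for group and shape for replicate. The stromal sums of control replicates 2 and 3 lie far above the other arrays. *Atg5f/f;Vav* replicate 3 is lowest for the stem cell surface and SLAM, multipotent and lymphoid progenitor, megakaryocyte, neutrophil, T and NK cell, and endothelial lists.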

How the data were processed

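The authors deposited Feature Extraction 12.0.3.1 output with 1 background-corrected intensity per spot, and a normalised signal that equals this intensity over the 75th percentile of all 62976 spots of the array; the intensities were used. Processing beyond this is not given in the sources used here. The 75th percentile of the 59305 non-control spots of an array was subtracted from its log2 intensities, without outlier-flagged spots, and spots of a probe were averaged. The 32074 probes well above background on at least 3 arrays were tested, 2-sided, by lmFit and eBayes of limma 3.58.1 (R 4.3.3), adjusted by Benjamini-Hochberg at 0.05, and the steps were tested on simulated data. Array number limits the precision. A gene was represented by its brightest probe on the gene's strand. Text names every probe of the 9 genes, up to 3 called genes each way per regulator list, all heptad partners, ends of marker ranges and nearest profiles; *Hoxb3*, *Hoxb5*, *Mycn*, *Egfl7*, the globins, the Pbx and *Hlf* relatives, *Spi1*, *Kit* and markers not tested were named after their values were seen, and one marker is not reported here. The 9 genes and all lists were chosen with earlier results of these data known. Alternatives covered background correction, scaling, filters, flags, variance trend, the methods' t-test, the replicate block and arrays left out.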

Additional observations from a re-analysis of the deposited data

How the results depend on the processing

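Direction was kept for 8 of the 9 genes in all 18 alternatives (17 planned and 1 chosen after seeing the data), of which 11 gave the log2 difference another value for the 6 genes with 1 probe and 12 for *Mecom*, *Meis1* and *Runx1*; the others act on the test alone or left the value as it was. The exception was *Runx1*, at 0.15 with the mean of all detected probes (adjusted p = 0.404, range over its alternatives 0.0771 to 0.683). The call was lost in 4 alternatives for *Mecom* and *Hlf*, 5 for *Prdm16*, 9 for *Meis1* and 8 for *Erg*, and the highest adjusted p was 0.198, 0.2, 0.209, 0.332 and 0.32. *Gata2*, *Runx1*, *Fli1* and *Etv6* were called in none. With no filter on dim probes, called features fell from 9 to 4 among probes of the 9 genes, from 11024 to 4538 among all probes and from 24 to 8 among related regulators, where 56605 probes were tested. The methods' t-test called 0, 0 and 0 after adjustment, and 8, 13541 and 31 at an unadjusted p under 0.05. With control replicates 2 and 3 left out, limma called 0, 0 and 0, and 7, 7307 and 17 unadjusted. With each array left out the counts were 0 to 9, 251 to 10304 and 0 to 23. The 0 counts came without control replicate 1 or 2 (9 of the probes at an unadjusted p under 0.05 each, and 20 and 28 regulators), and 15 regulators passed without *Atg5f/f;Vav* replicate 2. With scaling on the probes that all arrays detected, the median of all probes moved from −0.06 to −0.22, and 3886 were higher and 8753 lower, against 5540 and 5484. Same-numbered arrays deviated with correlations of −0.07, 0.19 and 0.11, so the numbers were not taken to pair the samples. The replicate block gave 8, 10173 and 17, and under it *Meis1* and *Erg* had an adjusted p of 0.0714 and 0.0575 (limma). The cause of these changes was not tested. Dim probes, such as the first printed *Mecom* probe, and 3 arrays per group limit the precision.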
